A study of Mus musculus with 6 samples.

Results

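The 10 genes described here are mRNAs encoded by the mitochondrial genome: mt-Nd1, mt-Nd2, mt-Nd4, mt-Nd5, mt-Nd6, mt-Cytb, mt-Co1, mt-Co2, mt-Co3 and mt-Atp6. They were taken by symbol from the rows of the deposited table on chromosome MT, and are 10 of its 21958 gene rows with values. That chromosome has 13 protein-coding rows in the table, and the 3 left out of the set are mt-Nd3, mt-Nd4l and mt-Atp8. The cells were RAW264.7, a macrophage-like mouse line, and had been given lipopolysaccharide (LPS), an outer-membrane molecule of Gram-negative bacteria that activates macrophages. In 3 libraries the LPS-treated cells were co-cultured with BMSCs, an abbreviation the labels do not spell out and that usually stands for bone marrow stromal cells, and in 3 libraries they had LPS alone. Both groups thus carry LPS, and no group without it was analysed here. The labels call the replicates biological, give no LPS dose or time, and do not state where the BMSCs came from or whether they touched the macrophages; the title of LPS replicate 3 spells the line RAW264.9, and its cell line tag RAW264.7. The study's design text speaks of a printed scaffold with BMSCs and the growth factor bFGF, but the sample labels name only BMSC co-culture.

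Mitochondria keep a small circular genome whose proteins are all core subunits of oxidative phosphorylation: the ND proteins of complex I, cytochrome b of complex III, the CO proteins of complex IV and the ATP proteins of complex V. Long transcripts of each strand are cut mainly at the tRNAs that separate most, but not all, of the genes. Most of the mRNAs released then gain a short poly(A) tail. All of the members but mt-Nd6 lie on the same strand; mt-Nd6 is read from the opposite strand, and in human cells its mRNA lacks the usual poly(A) tail. In macrophages LPS is known to shift energy supply toward glycolysis and to change how the respiratory chain is used.

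The ends of a few members bear on how their reads were captured and counted, since mRNA was selected on oligo(dT) beads. The mt-Nd5 and mt-Nd6 genes face each other and overlap by 14 bases, and these 30-base 3′ ends (MT:13536-13565, plus strand, and MT:13552-13581, minus strand; GRCm38) show the shared bases in capitals.
mt-Nd5: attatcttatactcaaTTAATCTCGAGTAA
mt-Nd6: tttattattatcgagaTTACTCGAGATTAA
The library protocol in the labels names no step that marks strand, so reads of mt-Nd6 and reads of RNA from the other strand of the same stretch cannot be told apart. For 3 members the gene ends on a lone T, in capitals below, that a poly(A) tail completes to a stop codon (last 30 bases, plus strand, MT:9361-9390, MT:11515-11544 and MT:15259-15288).
mt-Co3: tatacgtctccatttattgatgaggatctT
mt-Nd4: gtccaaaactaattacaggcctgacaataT
mt-Cytb: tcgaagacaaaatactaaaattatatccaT
These ends come from the GENCODE M21 transcripts, and the table's start and end equal those of GENCODE M21 for all 10 members.

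Libraries held 17716460 to 22539884 gene counts, at which a detection floor of 3 counts equals 0.133 to 0.169 CPM, the count scaled to a library of 1e6 counts. The groups differed in most of the transcriptome: of 11103 genes tested, 75.5% had an adjusted p under 0.05 in edgeR's quasi-likelihood test. Spread was wider among co-culture replicates, with a chi-square per degree of freedom of 5.16 to 26.82 between pairs, against 1.71 to 2.11 in the LPS group; both of the larger values, 15.78 and 26.82, involve co-culture replicate 1. Of 12 macrophage markers 11 were tested, and 6 rose, 1 fell (Ptprc, log2 -0.93) and 4 did not pass (Adgre1, Csf1r, Itgam and Aif1, at 0.01 to 0.27; these 5 named after their values were seen). The median log2 fold change of the markers was 0.56. After removal of a trend in gene length and GC content, described below, 5 rose and 3 fell and the median was 0.04. The list summed to 26179 to 29044 CPM in co-culture libraries and 16812 to 17236 CPM in LPS libraries, sums that the lysozyme gene Lyz2 dominates (17948 ± 1299 CPM in co-culture, against 10964 ± 230 CPM under LPS alone; SD, n = 3 each). Of 21 stromal markers 4 were tested: Acta2 rose (log2 0.85), Lum and Runx2 fell (-1.41 and -0.48) and Dcn did not pass (-0.03). The stromal list summed to 22.6 to 25.1 CPM in co-culture libraries and 16 to 18.3 CPM in LPS libraries; Acta2 alone held 18.3 CPM in co-culture and 10.2 CPM under LPS alone, and Col1a2, Col3a1, Cxcl12, Thy1, Postn and Twist1 were at 0 in every library. The part of other cells in the results below was not tested.

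The 10 mitochondrial mRNAs took up a smaller share of the counts with co-culture. They held 1.91%, 2.16% and 2.38% of all gene counts in the co-culture libraries, and 2.85%, 2.89% and 2.96% in the LPS libraries. The groups did not overlap, and the means were 2.15% ± 0.232 in co-culture and 2.90% ± 0.0522 with LPS alone (SD, n = 3 each), 25.8% lower in co-culture. The plot of count shares shows that most of this difference lay in mt-Co1. It held 1.03% ± 0.170 of counts in co-culture and 1.63% ± 0.0288 with LPS alone, and so accounts for 0.598 of the 0.749 percentage points, with another 0.127 points in mt-Nd5. The share of mt-Nd6 went the other way, at 0.0467% of counts in co-culture and 0.0267% with LPS alone. With the 10 most abundant nuclear genes left out of the total the members held 2.39% of counts in co-culture and 3.14% with LPS alone. The share of the members other than mt-Co1 was 11.9% lower in co-culture. All these shares rest on library totals, under which the median log2 fold change of all genes tested was itself -0.177. Part of the 25.8% was thus common to genes at large. TMM scaling, described below, allows for that shift. On its scale the members' sum averaged 22854 CPM where BMSCs were present, against 27264 CPM where they were absent, and the groups did not overlap. In these bulk samples fewer mitochondria in each cell, another mix of cells and less of this RNA in each mitochondrion cannot be told apart.

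**Figure D1:**
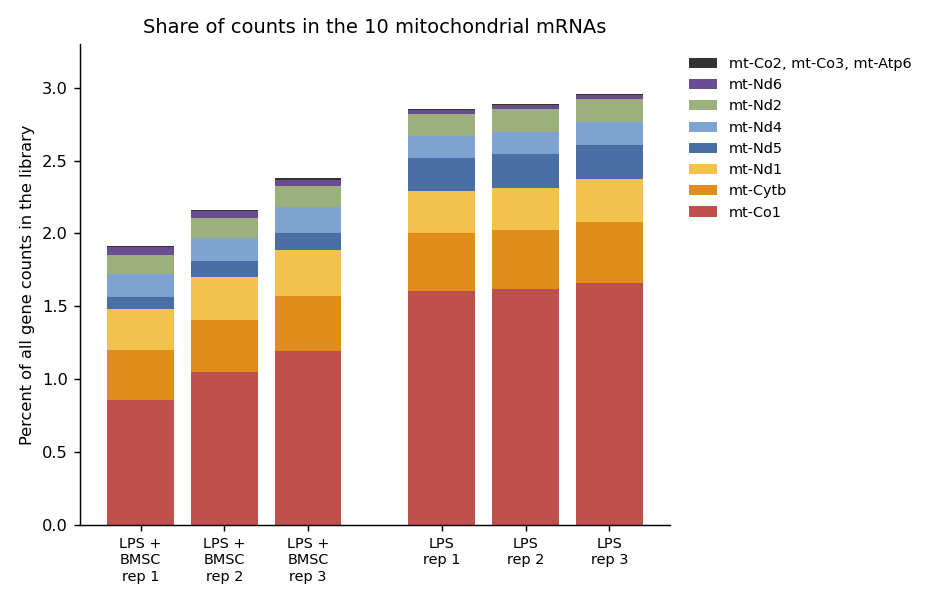
Share of each library's gene counts (percent, y axis) in the 10 members, stacked by gene, for 3 libraries of LPS with BMSC co-culture (left) and 3 of LPS alone (right). The whole bar is 1.91% to 2.38% in co-culture and 2.85% to 2.96% with LPS alone, and mt-Co1 is the thickest layer in each.

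Tested gene by gene, the members did not move as a block. Of the 10, 4 rose (mt-Nd1, mt-Nd4, mt-Nd6 and mt-Co2), 2 fell (mt-Co1 and mt-Nd5) and 4 did not pass (mt-Nd2, mt-Cytb, mt-Co3 and mt-Atp6), on counts scaled by TMM, a method that sets the bulk of genes level between libraries. Over all genes tested 37.5% rose and 38% fell, so the number of members called, 6 of 10, is not above the background. Groups of CPM values did not overlap for these same 6 members, beside 80.2% of all genes tested, 39.8% with all co-culture libraries higher and 40.4% with all lower. The median log2 fold change was 0.25 over the members and 0.001 over all genes tested. The members' median was not firm, at 0.054 without co-culture replicate 3 and 0.07 with library totals. It also includes mt-Co2, mt-Co3 and mt-Atp6, whose values are uncertain for reasons given below. With scaling by library totals alone, under which the median of all genes moved to -0.18, 2 members rose and 4 fell. The calls for mt-Nd5, mt-Co1 and mt-Nd6 kept their direction and their side of the threshold under all 16 alternative settings. The values by library are in the plot of CPM by library.

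**Figure D2:**
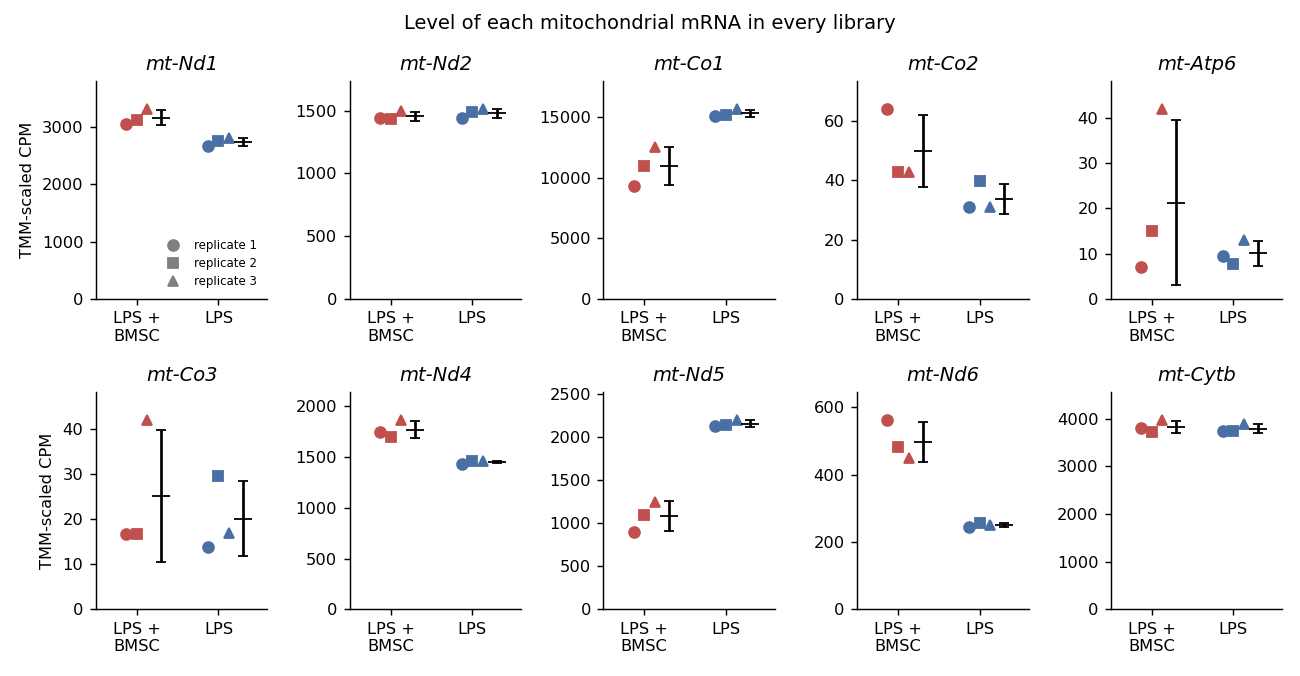
TMM-scaled CPM (y axis, from 0, own scale in each panel) of each member in the libraries with LPS and BMSC (left) and with LPS alone (right); symbols mark replicates, and bars give the mean ± SD, n = 3 each. The groups are apart for mt-Nd5 and mt-Co1 (lower in co-culture) and for mt-Nd6, mt-Nd4, mt-Nd1 and mt-Co2 (higher), while single libraries carry the high values of mt-Atp6 and mt-Co3.

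Among the complex I genes, mt-Nd5 fell and its neighbour mt-Nd6 rose, each by about the same fold. mt-Nd5, a proton-pumping subunit at the far end of the membrane arm, stood at 900, 1095 and 1246 CPM in co-culture libraries and at 2126, 2143 and 2195 CPM in LPS libraries. All co-culture libraries lay below all LPS libraries, and the log2 fold change was -0.996 (SE 0.10, adjusted p 1.17e-05 in the edgeR test), 1.99-fold lower. mt-Nd6, another membrane subunit and the member on the opposite strand, stood at 562, 482 and 448 CPM in co-culture libraries and at 246, 256 and 251 CPM in LPS libraries. Every co-culture library was above every LPS library, and the log2 fold change was 0.99 (SE 0.08, adjusted p 3.63e-06), 1.98-fold higher. Per 100 mt-Nd5 reads there were 62.4, 44.0 and 36.0 mt-Nd6 reads in co-culture libraries and 11.4 to 11.9 in LPS libraries, a ratio of means of 4.07. Both genes were farthest from the LPS level in co-culture replicate 1, where mt-Nd5 deviated from its co-culture mean by -0.25 and mt-Nd6 by 0.18 on the log2 scale. Without that library the log2 fold changes were -0.87 for mt-Nd5 and 0.90 for mt-Nd6.

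The size of the mt-Nd6 change, unlike that of mt-Nd5, depended on how fold changes were treated that varied with gene length and base composition. In these data the shortest 2776 tested genes had a median log2 fold change of 0.52 and the longest 2776 genes one of -0.51. With a smooth trend in length and GC taken out of each library, mt-Nd6, of 519 bases and the shortest member, was 0.25 higher (SE 0.07, adjusted p 0.00577), whereas mt-Nd5, of 1824 bases and the longest, was 0.96 lower (log2 fold change -0.96, SE 0.07, adjusted p 3.68e-07). Few genes set the trend near mt-Nd6, which has 34.1% GC: of the tested genes 5.84% are at or below 39.9%, the highest of the members. Its value with the trend removed is less certain for that. Genes for replication-dependent histones, whose mRNAs also mostly lack a poly(A) tail, were low: of the 54 in the table, 8 passed the filter on low counts. A gene so low can pass through the group where it is high, so the 8 calls among those 8, all higher, are no measure of the list. With no filter 42 were tested and 10 of them were called higher (median 1.08), while others were lower by value with no call. H3c8, named after its value was seen, was among these, at 0.05 CPM in co-culture and 0.216 CPM under LPS alone. After removal of the length and GC trend 5 of the 8 were called. The linker histone gene H1f2 stood at 24.4 to 29.0 CPM in co-culture, against 7.5 to 8.1 CPM under LPS alone. The summed level of the 54 genes was 57.9 to 67.0 CPM in co-culture, against 20.2 to 20.8 CPM under LPS alone. H1f2 and H2bc4 (mean 13.5 CPM in co-culture, 4.99 CPM under LPS alone), both among the 8 that passed, weigh most in that sum. It is therefore no measure of the list either. Whether the capture of RNA without a tail had a part in the mt-Nd6 result was not tested.

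The other complex I genes changed little. mt-Nd4, a further proton-pumping subunit that lies just before mt-Nd5 on the same strand, stood at 1746, 1701 and 1862 CPM in co-culture libraries and at 1435, 1457 and 1459 CPM in LPS libraries. The groups did not overlap, and mt-Nd4 was 1.22-fold higher (log2 0.29, SE 0.05, adjusted p 0.000634 in the edgeR test), a call that was lost with library totals alone (0.11, adjusted p 0.0883). Between these neighbours the ratio shifted: there were 51.6, 64.4 and 66.9 mt-Nd5 reads per 100 mt-Nd4 reads in co-culture libraries and 147 to 150 in LPS libraries. mt-Nd1, which lies next to the ubiquinone-binding site, stood at 3061, 3135 and 3312 CPM in co-culture libraries and at 2673, 2767 and 2809 CPM in LPS libraries. It rose slightly (log2 0.21, SE 0.05, adjusted p 0.00488), but was not called with library totals (0.03) and turned to -0.20 (adjusted p 0.00105) after removal of the length and GC trend. mt-Nd2, at 1438, 1432 and 1498 CPM in co-culture libraries and 1440, 1486 and 1510 CPM in LPS libraries, did not pass (log2 -0.02, 95% interval -0.13 to 0.09, adjusted p 0.698). Its groups overlapped on this scale but not in FPKM. It was called lower with library totals (-0.20, adjusted p 0.00472), by limma on FPKM (-0.20, adjusted p 0.00629) and after removal of the length and GC trend (-0.30, adjusted p 3.53e-05).

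Complex III has a single mitochondrial subunit, cytochrome b, which carries electrons through the membrane part of the complex. mt-Cytb stood at 3801, 3722 and 3972 CPM in co-culture libraries and at 3738, 3754 and 3896 CPM in LPS libraries. These ranges overlap, and it did not pass in the edgeR test (log2 0.01, 95% interval -0.10 to 0.13, adjusted p 0.815). It was called lower with library totals (-0.165, adjusted p 0.0125) and after removal of the length and GC trend (-0.31, adjusted p 3.2e-05), so no direction can be given for it.

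In complex IV, mt-Co1, the subunit that holds the site where oxygen is reduced, was lower with co-culture. It stood at 9341, 10985 and 12534 CPM in co-culture libraries and at 15099, 15217 and 15643 CPM in LPS libraries. The groups did not overlap, and the log2 fold change was -0.48 (SE 0.09, adjusted p 0.00077), 1.40-fold lower. By raw counts mt-Co1 was the most abundant of all 21958 genes in every LPS library and ranked 4 in every co-culture library. Without co-culture replicate 1 its log2 fold change was -0.37, and after removal of the length and GC trend it was -0.64 (SE 0.07, adjusted p 8e-06). mt-Co2, the subunit that takes electrons from cytochrome c, stood at 64.0, 42.7 and 43.0 CPM in co-culture libraries and at 30.8, 39.7 and 31.0 CPM in LPS libraries, 1.48-fold higher (log2 0.56, SE 0.16, adjusted p 0.0099). Without co-culture replicate 1, its highest library, the log2 value was 0.35. Its CPM values did not overlap between groups while its FPKM did, and after removal of the length and GC trend its log2 value was -0.12 (adjusted p 0.454). mt-Co3, the remaining mitochondrial subunit of the complex, stood at 16.7, 16.8 and 42.1 CPM in co-culture libraries and at 13.9, 29.6 and 17.1 CPM in LPS libraries and did not pass (log2 0.31, SE 0.37, adjusted p 0.462). Without co-culture replicate 3, where it was highest, the value was -0.27.

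In complex V, mt-Atp6, the subunit that lines the proton channel, stood at 6.9, 15.1 and 42.0 CPM in co-culture libraries and at 9.4, 7.8 and 13.1 CPM in LPS libraries. The groups overlapped and it did not pass (log2 1.06, SE 0.52, adjusted p 0.0877 in the edgeR test); without co-culture replicate 3 the log2 fold change was 0.12. The counts behind these values were 139, 294 and 787 in co-culture libraries and 177, 163 and 314 in LPS libraries.

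Levels compared between genes need a measure per length, and here the deposited FPKM (counts per kilobase of gene and per 1e6 counts of the library) were used. With LPS alone the mean FPKM fell in the order mt-Co1 (10540 ± 187), mt-Cytb (3529 ± 76.8), mt-Nd1 (3055 ± 75.9), mt-Nd2 (1515 ± 35.8), mt-Nd5 (1256 ± 19.5), mt-Nd4 (1119 ± 10.3) and mt-Nd6 (514 ± 10.8; SD, n = 3), and no neighbours in that order overlapped. The places of mt-Nd4 and mt-Co1 hold only as far as reads shared with nuclear copies of parts of these genes, whose handling is unknown, were counted alike. With co-culture mt-Nd5 moved to the bottom of these 7, at 451, 573 and 650 FPKM, below mt-Nd6 at 989, 886 and 821 FPKM. The top of the order was unchanged, with mt-Co1 at 5526, 6787 and 7715 FPKM in co-culture libraries. Behind it mt-Cytb (3037 to 3302 FPKM) and mt-Nd1 (2924 to 3292 FPKM) overlapped in co-culture, as did mt-Nd2 (1266 to 1372 FPKM) and mt-Nd4 (1158 to 1285 FPKM). FPKM are scaled by library totals, so their group means run lower in co-culture than the TMM-scaled values.

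mt-Co2, mt-Co3 and mt-Atp6 sat far below the rest of the set, at 9.3 to 85.5 FPKM over the 6 libraries, against 451 to 10750 FPKM for the other 7 members. These are also the members with near-perfect nuclear copies. Of their windows of 50 bases, 100% (mt-Co2), 99.9% (mt-Co3) and 99.5% (mt-Atp6) also occur in an annotated nuclear transcript, and they match unprocessed pseudogenes on chromosome 1 without a mismatch over 681, 783 and 678 bases. These pseudogenes are Gm28661, Gm28437 and Gm10925, which lie side by side on the minus strand of chromosome 1 from 24613189 to 24615565 (GRCm38). To show what such a copy looks like to an aligner, 100 bases of mt-Co2 (MT:7313-7412, plus strand) are set against the copy (chr1:24615166-24615265, minus strand).
mt-Co2: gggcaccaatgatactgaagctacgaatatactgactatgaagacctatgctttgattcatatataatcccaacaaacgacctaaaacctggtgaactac
Gm28661: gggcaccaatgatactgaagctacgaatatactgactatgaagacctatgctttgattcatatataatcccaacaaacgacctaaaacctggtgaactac
By contrast, the nearest annotated copy of mt-Nd5, the processed pseudogene Gm4076 on chromosome 13, differs at 45 of 953 aligned bases, 6 of them (capitals) in the 100 shown here (MT:12447-12546, plus strand; chr13:85127415-85127514, minus strand).
mt-Nd5: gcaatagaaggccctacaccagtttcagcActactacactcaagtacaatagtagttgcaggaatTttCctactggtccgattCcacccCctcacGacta
Gm4076: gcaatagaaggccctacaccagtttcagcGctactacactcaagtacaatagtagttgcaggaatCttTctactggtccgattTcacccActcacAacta

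The same chromosome 1 block, 24611535 to 24616197, also holds Gm29216, a copy of the last 483 bases of mt-Co1 with a single mismatch, and Gm28439, a perfect copy of the first 876 bases of mt-Nd4. In mt-Co1 51.1% and in mt-Nd4 62.2% of windows occur in a nuclear transcript, against 8.2% in mt-Nd2, 7.6% in mt-Nd5 and 0.0% in mt-Nd1, mt-Nd6 and mt-Cytb. The coding mRNAs outside the set were lower still, as the plot of level against nuclear copies shows. mt-Nd3 had 12 to 22 counts a library, mt-Nd4l 0 to 7 and mt-Atp8 0 to 2, and the first of these 3 was tested and did not pass (log2 0.32, SE 0.29, adjusted p 0.339). None of the pseudogenes named as best copies is a row of the deposited table. The sources used here do not say how reads with several equally good positions were counted, and the part of that in these low values was not tested. The values of mt-Co2, mt-Co3 and mt-Atp6 are therefore uncertain as levels and as changes, and so, to a lesser degree, are the levels of mt-Nd4 and mt-Co1.

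**Figure D3:**
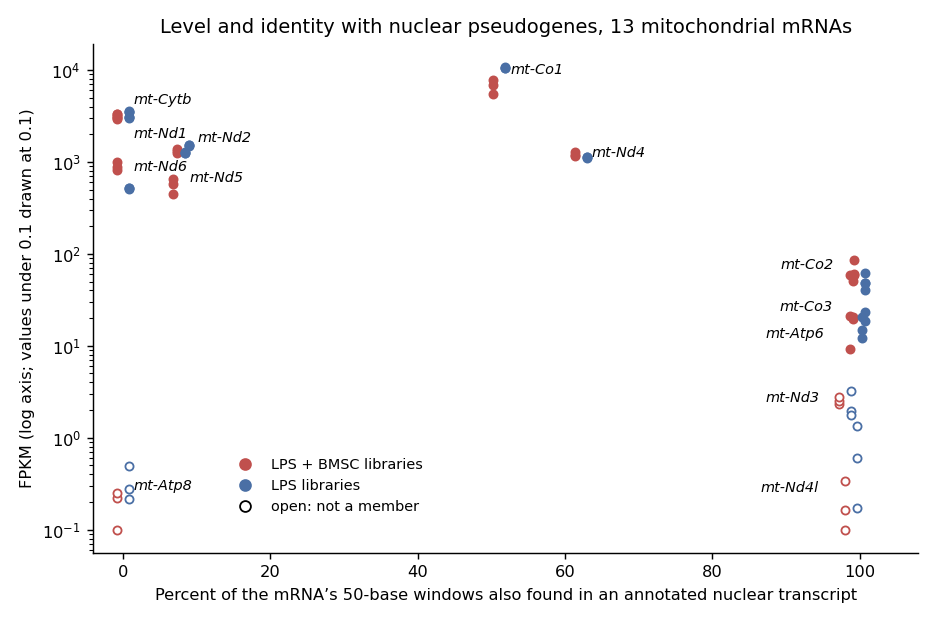
FPKM in each library (y axis, log scale) of the 13 coding mRNAs of the mitochondrial genome against the percent of their 50-base windows that occur in an annotated nuclear transcript (x axis); co-culture libraries left of LPS libraries at each gene, open symbols for the 3 genes outside the set. The 5 mRNAs near 100% lie under 100 FPKM, and the 7 members at 62.2% or less lie above 450 FPKM. mt-Atp8, also low, is drawn at 0%, but only annotated transcripts were searched. Its gene starts between mt-Co2 and mt-Atp6, whose copies are neighbours on chromosome 1, and an unannotated copy there was not searched for.

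A comparison within the mitochondrial mRNAs, which does not depend on how nuclear genes were scaled, asked whether the members changed unequally. mt-Co1 made up 47.8% ± 2.84 of the summed member counts in co-culture and 56.2% ± 0.145 with LPS alone, and mt-Nd5 4.71% ± 0.360 in co-culture and 7.90% ± 0.024 with LPS alone (SD, n = 3 each). mt-Nd6 made up 2.20% ± 0.450 in co-culture and 0.921% ± 0.020 with LPS alone, and mt-Nd1 13.9% ± 0.688 in co-culture and 10.1% ± 0.110 with LPS alone. Shares of the sum overlapped between groups for mt-Co3 and mt-Atp6 and for none of the other members. Such separation was common, at 80.2% of all genes tested on the TMM scale, and its frequency on the present scale was not worked out. With the member sum as the scale in the edgeR test, 7 members rose, 2 fell (mt-Co1 and mt-Nd5) and mt-Co3 did not pass, against 73.5% of all tested genes called on that scale, 47.8% higher and 25.7% lower. Relative to the sum, mt-Nd6 was 2.39-fold higher (log2 1.26, SE 0.14, adjusted p 4.98e-05) and mt-Nd5 1.68-fold lower (log2 -0.75, SE 0.09, adjusted p 6.94e-05). The sum does not take out the length and GC trend, which over all genes came to a log2 value of 0.74 for mt-Nd6 and -0.05 for mt-Nd5. Since mt-Co1 is about as large as all others together, its fall lifts the rest on this scale. With mt-Co1 left out of the sum, mt-Nd1, mt-Nd4, mt-Nd6 and mt-Co2 were still higher, mt-Nd5 and mt-Co1 lower, and the values for mt-Nd2 (-0.02) and mt-Cytb (0.02) were near 0. The fall of mt-Co1 relative to the full sum (log2 -0.23, adjusted p 0.0378) did not pass without co-culture replicate 2 (adjusted p 0.0828), LPS replicate 1 (adjusted p 0.131), LPS replicate 2 (adjusted p 0.129) or LPS replicate 3 (adjusted p 0.134). Without LPS replicate 1, 4 members were called higher in place of 7, the calls for mt-Nd2, mt-Cytb and mt-Atp6 being lost. These calls were not firm for other libraries either. Of 6 fits with a library left out, mt-Nd2 kept its call in 2, mt-Cytb in 3 and mt-Atp6 in 1. The calls for mt-Nd2 and mt-Cytb were lost on leaving out any of the LPS replicates.

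Position along the strand did not order the changes. In transcript order the log2 fold changes on the TMM scale were 0.21 for mt-Nd1, -0.02 for mt-Nd2, -0.48 for mt-Co1, 0.29 for mt-Nd4, -0.996 for mt-Nd5 and 0.01 for mt-Cytb, with the 3 genes that have near-perfect copies left out. Length came closer to ordering them, since the longest, mt-Nd5 and mt-Co1 (1545 bases), fell and the shortest, mt-Nd6, rose. mt-Nd4, of 1378 bases, was the exception, being higher than the shorter mt-Nd1 (957 bases), mt-Nd2 (1038 bases) and mt-Cytb (1144 bases). After removal of the length and GC trend, mt-Nd5 (-0.96), mt-Co1 (-0.64), mt-Cytb (-0.31), mt-Nd2 (-0.30) and mt-Nd1 (-0.20) were called lower and mt-Nd4 (0.21) and mt-Nd6 (0.25) higher, beside 71.5% of all genes called, 35.3% higher and 36.2% lower. The members have 34.1% to 39.9% GC, and of the tested genes 5.84% have a GC content no higher than that. The nuclear genes among those had a median log2 fold change of -0.57.

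**Figure D4:**
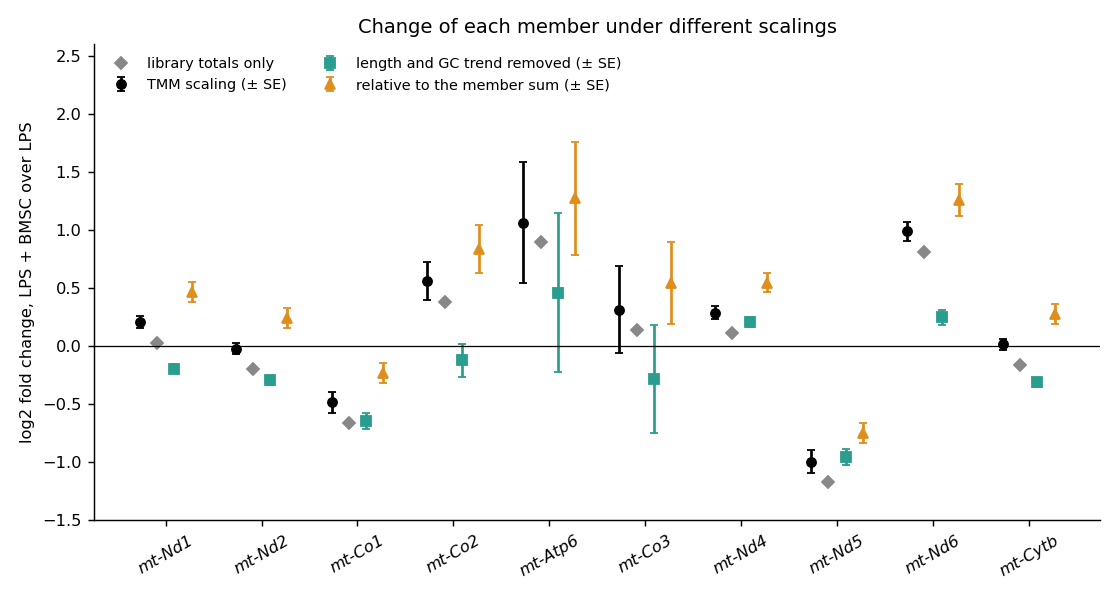
Log2 fold change of each member, LPS with BMSC over LPS alone (y axis; genes in order along the mitochondrial genome), with TMM scaling, with library totals only, after removal of the length and GC trend and relative to the member sum; bars are ± SE where drawn, n = 3 each. mt-Nd5 and mt-Co1 are below 0 in all 4, and mt-Nd6, mt-Nd4 and mt-Atp6 are above 0 in all 4. The values of mt-Nd1, mt-Nd2, mt-Cytb, mt-Co2 and mt-Co3 cross 0. Bars are widest for mt-Atp6.

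Most nuclear genes for the same complexes rose, beside mixed changes among the mitochondrial ones. Among all genes tested 37.5% rose and 38% fell. Of 75 tested genes for nuclear-encoded subunits of complexes I, III, IV and V, 68 rose, 3 fell and 4 did not pass. Their median log2 fold change was 0.86, beside 4 rises and 2 falls among the 10 members (median 0.25). Without co-culture replicate 3 these medians were 0.93 and 0.054. The summed level of the nuclear subunits was 9561 to 11264 CPM in co-culture, against 6444 to 6651 CPM under LPS alone, whereas the members summed to 20937 to 25000 CPM in co-culture, against 26810 to 27823 CPM under LPS alone. After removal of the length and GC trend the nuclear count was 38 higher and 13 lower, with a median of 0.17, and the members' median was -0.24. Of all genes, 35.3% were then called higher and 36.2% lower.

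In complex I, 33 of 36 tested nuclear genes rose and 2 fell (median 0.84), with Ndufv3, a small subunit of the NADH-binding module, at 67.8 to 96.7 CPM in co-culture, against 23.7 to 27.2 CPM under LPS alone (log2 1.64). Ndufs4, a subunit needed for late assembly of the complex, rose 2.24-fold (log2 1.16, and 1.22 with the trend removed), and Ndufa2 rose 2.90-fold, most of which was lost (log2 1.54, and 0.15 with the trend removed). Those that fell were Ndufs1, the largest subunit of the complex, and Ndufb2 (log2 -0.70 and -0.67; both named after their values were seen). With the trend removed 15 rose and 6 fell in complex I (median 0.10). All tested genes gave 37.5% higher and 38% lower on the TMM scale, and 35.3% and 36.2% with the trend removed. In complex III 7 of 9 rose and 1 fell (median 0.92), with Uqcrb 2.11-fold higher (log2 1.08, and 0.515 with the trend removed), but 4 rose and 4 fell (median -0.04) once the trend was removed. In complex IV 12 of 13 rose (median 0.90), with Cox4i1, a regulatory subunit, 2.47-fold higher at 347 to 464 CPM in co-culture, against 158 to 164 CPM under LPS alone (log2 1.31, and 0.48 with the trend removed), and with it removed 6 rose and 2 fell (median 0.17). In complex V 16 of 17 rose (median 0.85), with Atp5e, a small subunit of the central stalk, 2.64-fold higher (log2 1.40, and 0.91 with the trend removed), and with it removed 13 rose and 1 fell (median 0.49). Complex II, which has no mitochondrial gene, gave 2 rises and 1 fall among 4, with Sdhb 1.58-fold higher and Sdha 1.22-fold lower.

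**Figure D5:**
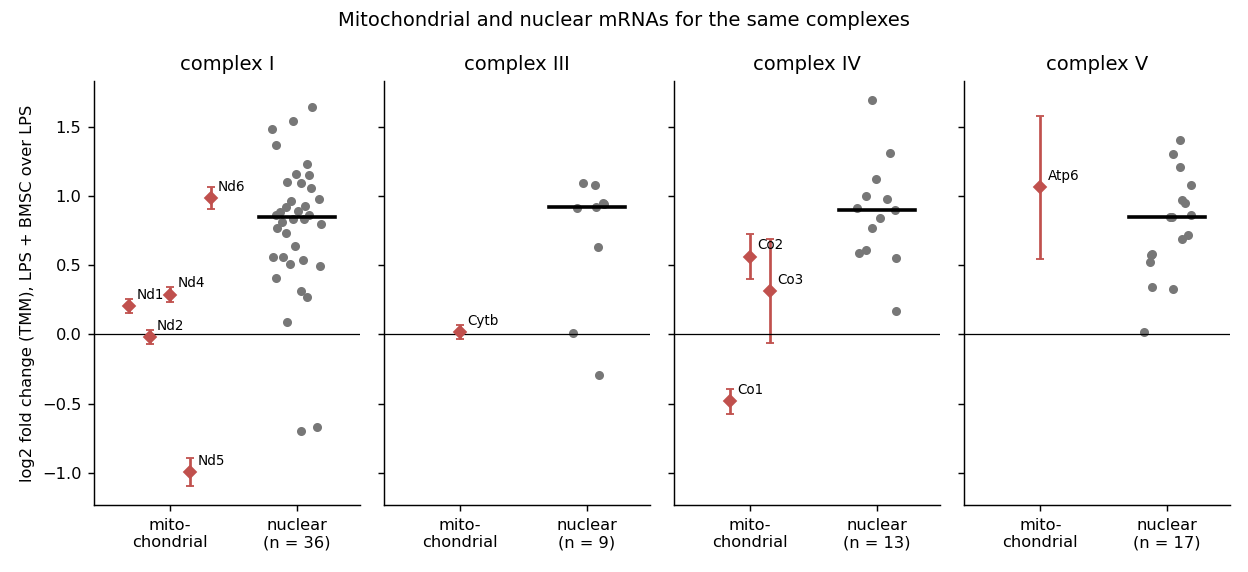
Log2 fold change on the TMM scale (y axis), LPS with BMSC over LPS alone, of mitochondrial members (diamonds ± SE) and of tested nuclear-encoded subunits (grey points, bar at the median) of complexes I, III, IV and V. The nuclear medians are 0.84, 0.92, 0.90 and 0.85; mt-Nd6 and mt-Atp6 lie above the nuclear median of their complex and the other 8 members below it.

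With library totals the medians of the lists that follow shifted down with that of all genes, and those for genome upkeep (-0.07), transcription (-0.12), RNA processing (-0.04) and translation (-0.16) were then below 0. The counts of all these lists stand beside 37.5% of all tested genes higher and 38% lower, or 35.3% and 36.2% with the trend removed. On the TMM scale those for transcription and translation were not above that background. Genes for the machinery that makes and destroys mitochondrial RNA were mixed in direction. Of 8 tested genes for mitochondrial mRNA stability and decay, 5 fell and 3 rose, with a median log2 fold change of -0.50, or 4 and 1 with a median of -0.13 once the length and GC trend was removed. Pnpt1, the polynucleotide phosphorylase that degrades mitochondrial RNA with the helicase SUV3 and that interferon induces, stood at 32.8, 48.8 and 51.0 CPM in co-culture libraries and at 128, 125 and 130 CPM in LPS libraries. It fell 2.89-fold (log2 -1.53, SE 0.14, adjusted p 5.45e-06 in the edgeR test). Its call held under all 16 alternatives, with log2 values of -1.71 to -1.24. Supv3l1, which encodes SUV3, was 0.20 higher on the log2 scale (adjusted p 0.0422; named after its value was seen), and kept its call in 5 of 16 alternatives. Lrpprc, which binds and stabilises mitochondrial mRNAs, fell 1.42-fold (87.6 ± 3.49 CPM in co-culture, against 124 ± 6.74 CPM under LPS alone), a call that was lost with the trend removed (-0.05). Angel2, a nuclease-family protein linked to mitochondrial mRNA ends, fell 1.64-fold, and Rexo2, which clears very short RNA fragments, rose 1.70-fold.

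Transcription genes were mixed too. Of 11 tested, 3 rose, 3 fell and 5 did not pass, with a median of 0.06. Tfb2m, the factor that opens the promoter, fell 1.64-fold, at 15.5 to 20.7 CPM in co-culture, against 28.5 to 31.8 CPM under LPS alone. Mrpl12, a ribosomal protein also reported to bind the polymerase, rose 1.96-fold and Mterf4, which acts in mitochondrial ribosome assembly, 1.70-fold, while Mterf2 fell 2.00-fold at 0.58 CPM in co-culture, against 1.17 CPM under LPS alone. Polrmt, the RNA polymerase itself, was 0.33 higher (adjusted p 0.018) and Tfam, which packages the genome and starts transcription, 0.11 higher (adjusted p 0.165; both named after their values were seen). Neither value was firm: Polrmt was not called with library totals or after removal of the length and GC trend, and Tfam was below 0 with library totals (-0.07) and called higher with the trend removed (0.34).

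Of 19 genes for replication and upkeep of the mitochondrial genome, 9 rose and 5 fell (median 0.11). The nucleotide carrier gene Slc25a33 rose 1.95-fold, and Polg, the catalytic subunit of the mitochondrial DNA polymerase, fell 1.69-fold, at 31.2 to 36.0 CPM in co-culture, against 54.7 to 59.3 CPM under LPS alone. The DNA ligase gene Lig3 fell 1.75-fold and the ribonucleotide reductase subunit gene Rrm2b 1.78-fold, the second of these not called with the trend removed. Of 14 regulators of mitochondrial biogenesis 2 rose and 8 fell (median -0.18), turning to 7 and 4 (median 0.04) with the trend removed. Gabpb2, a subunit of the factor NRF-2, fell 1.99-fold and the deacetylase gene Sirt1 2.16-fold, while Ppard rose 1.67-fold and Myc 1.46-fold.

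RNA processing and modification genes gave 13 rises and 7 falls of 26 (median 0.14), or 10 and 12 with the trend removed. Hsd17b10, a subunit of the RNase P that cuts at the tRNAs, and the pseudouridine synthase gene Pus1 rose 1.91-fold and 1.76-fold; the methyltransferase genes Nsun2 and Nsun3 moved apart, 1.37-fold higher and 1.90-fold lower. Translation factors gave 7 rises and 4 falls of 19 (median 0.02), with the ribosome recycling factor gene Mrrf 1.83-fold higher and Gfm1, an elongation factor, 1.65-fold lower. Tufm, the elongation factor that brings tRNAs, rose 1.48-fold and Guf1 fell 1.68-fold, and neither held with the trend removed. Assembly factors gave 20 rises and 10 falls of 37 (median 0.32), or 12 and 10 with the trend removed. Among them Uqcc2, for complex III, rose 2.48-fold, a call lost with the trend removed (log2 0.14). The other 3 named factors act on complex IV and were mixed: Cox14 rose 1.85-fold, while Cox15 and Coa5 fell 2.08-fold and 1.75-fold. Several genes named in these lists kept their call at a smaller size once the trend was removed: the log2 values were then 0.16 for Sdhb, 0.18 for Mrpl12, 0.19 for Hsd17b10, 0.199 for Pus1, 0.15 for Myc, 0.355 for Slc25a33, 0.37 for Cox14, -0.31 for Gabpb2, -0.38 for Nsun3, -0.40 for Angel2, -0.49 for Polg, -0.52 for Lig3 and -0.505 for Coa5.

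Among 5446 nuclear genes whose log2 CPM averaged 5 or more, those whose profile over the 6 libraries came closest to the mean profile of the members were Cd53, Fut8, Ginm1, Cetn3 and Cd274, with root mean square differences of 0.058 to 0.068 on the log2 scale. The mean profile averages log2 values over the 10 genes, so mt-Atp6 and mt-Co3, with their high values in co-culture replicate 3, weigh in it as much as mt-Co1. It describes the average of the set and not any of the members that changed.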

How the data were processed

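For 6 libraries the authors deposited a single table of gene-level read counts and FPKM. HISAT2 2.0.5 and mm10 appear in the submitters' processing notes; counting tool, annotation, strand setting and handling of multi-position reads: not given in the sources used here. Raw counts were deposited, as whole numbers, and the deposited FPKM equal count divided by gene length and column total. Of 21959 lines, 1 has no values and stayed out.

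Groups came from the sample titles. The quasi-likelihood test of edgeR 4.0.16 under R 4.3.3, with robust dispersions, was run on counts of all genes with TMM scaling, the default filter by group (11103 genes kept) and Benjamini-Hochberg adjustment over all of them, at 0.05. The biological coefficient of variation was 7.05%. A second fit used the summed member counts as library size. Gene lists are described by counts and medians only, with no set test. The code was tested on simulated counts. Alternatives were RLE factors, library totals, scaling over nuclear genes, DESeq2 1.42.0, limma 3.58.1 on log2(FPKM + 1), other filters, a replicate block, each library left out, and an offset for length and GC content (natural splines, 5 degrees of freedom; GC from GENCODE M21 transcripts). Copies were found by exact windows of 50 bases in GENCODE M21 transcripts and aligned with Biopython 1.88; unannotated copies were not searched. Members and lists were chosen with earlier results of these data known. Genes named beside the members were up to 4 called genes per list by smallest p, and the 5 nuclear genes closest to the members' mean profile. Exceptions are marked in the text, apart from Dcn and the stromal genes at 0 in every library, which also fall outside this rule. No molecular identifiers are named, so floors cover counting error only.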

Additional observations from a re-analysis of the deposited data

How the results depend on the processing

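mt-Nd5 (-1.19 to -0.87), mt-Co1 (-0.67 to -0.37), mt-Nd6 (0.24 to 1.06) and Pnpt1 (-1.71 to -1.24) kept their log2 direction and call under all 16 alternatives. Members called higher and lower were 4 and 2, against 2 and 4 with library totals or limma on FPKM and 2 and 5 with the length and GC offset, alone or with the replicate block. Nuclear subunits of complexes I, III, IV and V called higher were 68, against 38 with that offset (36 with the block too), and those called lower 3, against 13. Relative to the member sum, 7 were higher, against 4 with the sum without mt-Co1 and 4 to 6 leaving out a library, and 2 lower, against 1 with the replicate block and 1 to 2 leaving out a library. The share of mt-Nd1 in the sum, 1.38 times the LPS value by counts, was 1.296 times by FPKM.

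Reversed log2 values with the length and GC offset, the second of each pair with the block too, were -0.20 and -0.20 for mt-Nd1, -0.31 and -0.31 for mt-Cytb, -0.12 and -0.14 for mt-Co2, -0.28 and -0.31 for mt-Co3, -0.069 and -0.069 for Cox6b1, -0.009 and -0.008 for Cox7a2, -0.64 and -0.64 for Cox8a, 0.15 and 0.15 for Guf1, -0.022 and -0.022 for Tufm, -0.22 and -0.22 for Tyrobp, and -0.035 and -0.037 for Supv3l1. With library totals and with limma on FPKM, mt-Cytb was -0.165 and -0.165 and Tfam -0.07 and -0.065. Leaving out a library, mt-Cytb ran from -0.007 to 0.04 and mt-Co3 from -0.27 (without co-culture replicate 3) to 0.69. Without mt-Co1 in the sum, mt-Nd2 was -0.016. The cause was not tested.

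Same-numbered libraries did not deviate together (correlations of -0.042, -0.024 and 0.040 across genes), so the replicate numbers were not taken as pairs. With the replicate block 4070 genes rose and 4147 fell, against 4160 and 4222, and mt-Atp6 became called (log2 0.87, adjusted p 0.0299). Among all calls, 49.6% were higher with TMM and 38.3% with library totals. At 139 to 1284 counts a library, mt-Co2, mt-Co3 and mt-Atp6 are the least precise of the members.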
